A study of Mus musculus with 6 samples.

Results

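Hox genes encode homeodomain transcription factors that tell cells where along the body they lie. In the mouse they stand in 4 clusters, HoxA to HoxD, in which genes carrying the same number (paralogues) descend from one ancestor and all lie in the same order. Low numbers are used toward the head and high numbers toward the tail, and adult epithelia usually keep a stable part of that pattern. In the mammary gland, Hoxa9, Hoxb9 and Hoxd9 are known to act together in the growth of the gland during pregnancy, and Hoxc8 in the placement of the mammary buds.

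The members were all rows of the deposited count table whose gene symbol is Hox, a cluster letter from a to d, and a number. The rule found 28 of the 25655 genes in the table, 10 of HoxA, 10 of HoxB, 7 of HoxC and 1 of HoxD. GENCODE M21 annotates 39 such genes, and the other 11 (Hoxa13, Hoxc11, Hoxc12 and 8 genes of HoxD) were not analysed here. The libraries came from Comma-Dβ, an established line of mouse mammary epithelium, at passage 29. One arm (siID4) was transfected with 20 nM of the siGENOME Mouse Id4 SMARTpool and the other (NT) with 20 nM of the ON-TARGETplus Non-targeting Control Pool, and RNA was taken 48 hr later, from 3 biological replicates per arm. All 6 cultures had the same medium with serum, insulin and mEGF and the same transfection reagent. The arms differ in the siRNA product line as well as in the target, and these cannot be told apart.

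The libraries held 19.2 to 23.1 M counts. Id4, the targeted gene, was at 114 to 135 CPM (counts scaled to library size, with TMM factors) in NT and 48.2 to 62.2 CPM in siID4, with no overlap. Across all genes tested 644 rose and 687 fell (829 and 564 with library totals in place of TMM). Of the cell type markers, 5 of 5 basal and 6 of 6 luminal mammary markers had a mean of at least 1 CPM, as had 6 of 8 fibroblast markers (all but Thy1 and Lum). The endothelial, leukocyte and adipocyte markers were all under 1 CPM, with Plin1 at 0. The endothelial markers summed to 0.627 to 0.968 CPM in NT and 1.49 to 2.16 CPM in siID4. The nerve and glia markers, with Sox10 at 0, summed to 5.59 to 9.15 CPM in NT and 4.27 to 5.00 CPM in siID4. The summed fibroblast markers reached 3154 to 3725 CPM in NT and 4436 to 5107 CPM in siID4, with Col1a1, Col1a2 and Pdgfrb called upward and Pdgfra downward. Of the epithelial markers, Trp63 (basal) and Cdh1 (luminal) were called upward and Epcam (luminal) downward. The part of these differences in the Hox values was not tested. In bulk RNA, fewer cells of a type and less RNA per cell cannot be told apart.

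Comma-Dβ cells expressed a Hox set made mostly of HoxB genes with paralogue numbers 2 to 9, with a smaller share of HoxA, little HoxC and 1 count of Hoxd4. No Hox gene passed the main test between the arms, which has group as its only term. With the replicate number as a block, an alternative fit, 1 of the 18 tested (Hoxb2) passed, where 36.1% of all genes were called. Of the 28 genes, 18 passed the low-count filter (edgeR's filterByExpr) and could be tested, 7 of 10 in HoxA, 8 of 10 in HoxB, 3 of 7 in HoxC and 0 of 1 in HoxD. Of the tested genes, 16 averaged 1 CPM or more, all but Hoxa10 and Hoxc6. For comparing genes with each other, levels are given as TPM, in which counts are divided by the deposited gene length before scaling to library size. Among the 13941 genes tested, the most abundant Hox gene, Hoxb9, stood at the 48.4th percentile of mean TPM and Hoxa10 at the 5.62th, so all 18 lay below the middle of the range.

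Promoter sequence was on hand for 13 of the 28 genes (RefSeq, GRCm38.p6, 250 bases before to 50 after a gene's start, 14 windows). The sequences below show a gene of HoxB, the most abundant Hox cluster (Hoxb4), the Hox gene with the smallest p between the arms (Hoxa5) and one with no read (Hoxa11). Capitals mark matches to CANNTG, the E-box letters recognised by the helix-loop-helix proteins that ID proteins bind, which read alike on both strands. Hoxb4 is on the plus strand at chr11:96318017-96318316, Hoxa5 on the minus strand at chr6:52204538-52204837 and Hoxa11 on the minus strand at chr6:52245761-52246060.
Hoxb4: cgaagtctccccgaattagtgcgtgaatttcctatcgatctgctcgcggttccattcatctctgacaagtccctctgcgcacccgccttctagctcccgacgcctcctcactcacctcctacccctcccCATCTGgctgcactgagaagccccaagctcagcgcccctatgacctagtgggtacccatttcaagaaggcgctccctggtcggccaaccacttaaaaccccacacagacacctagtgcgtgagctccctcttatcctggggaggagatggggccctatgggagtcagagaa
Hoxa5: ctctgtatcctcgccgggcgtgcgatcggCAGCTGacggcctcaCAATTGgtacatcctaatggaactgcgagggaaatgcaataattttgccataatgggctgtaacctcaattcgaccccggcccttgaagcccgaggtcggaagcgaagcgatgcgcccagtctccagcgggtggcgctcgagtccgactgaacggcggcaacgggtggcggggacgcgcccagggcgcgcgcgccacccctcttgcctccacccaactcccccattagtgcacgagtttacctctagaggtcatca
Hoxa11: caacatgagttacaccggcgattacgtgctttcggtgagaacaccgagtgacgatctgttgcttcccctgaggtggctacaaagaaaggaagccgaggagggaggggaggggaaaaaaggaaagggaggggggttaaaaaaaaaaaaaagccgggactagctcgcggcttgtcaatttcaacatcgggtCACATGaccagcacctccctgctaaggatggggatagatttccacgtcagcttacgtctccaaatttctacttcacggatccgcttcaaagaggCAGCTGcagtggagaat

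Hoxb4 held 1 E-box match and Hoxa5 and Hoxa11 each held 2, so the letters were found in genes with and without reads. Over all 32851 windows of this length in the table, 72.3% held CANNTG. Among the Hox windows it was 4 of 9 for genes that could be tested and 5 of 5 for genes that could not. The narrower letters CAGCTG, which are one form of CANNTG and also read alike on both strands, were in 4 of the 14 Hox windows and 16.3% of all. CAGGTG, another form, searched on both strands, was in 0 of 14 and 20.2% of all. TGATNNAT, letters bound by HOX proteins paired with PBX, searched on both strands, was in 3 of 14 (Hoxb8, Hoxb1 and Hoxa2) and 8.85% of all. The Hox windows had a median of 12.5 CG dinucleotides, where all windows had a median of 7. These matches describe letters only and say nothing about binding.

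HoxB carried most of the Hox mRNA. Its summed level was 74.1, 74.1 and 80.7 TPM in NT replicates 1 to 3 and 73.0, 85.8 and 88.1 TPM in siID4, which is 69.4% to 72.7% of the Hox total in every library. HoxA summed to 25.3, 25.3 and 24.4 TPM in NT and to 27.9, 29.1 and 31.1 TPM in siID4. The HoxA sums of the arms did not overlap, with a siID4 mean 1.18 times the NT mean, while the HoxB and HoxC sums overlapped. These TPM values carry no TMM scaling. In CPM with TMM factors the HoxA sums again did not overlap, with a ratio of 1.13. For HoxB the ratio was 1.08 in TPM and 1.04 in CPM, and for HoxC 0.979 and 0.915. HoxC summed to 4.39, 3.87 and 5.92 TPM in NT and 4.20, 4.69 and 5.00 TPM in siID4. No test is given for these sums, since they pool members of 1 list.

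**Figure D1:**
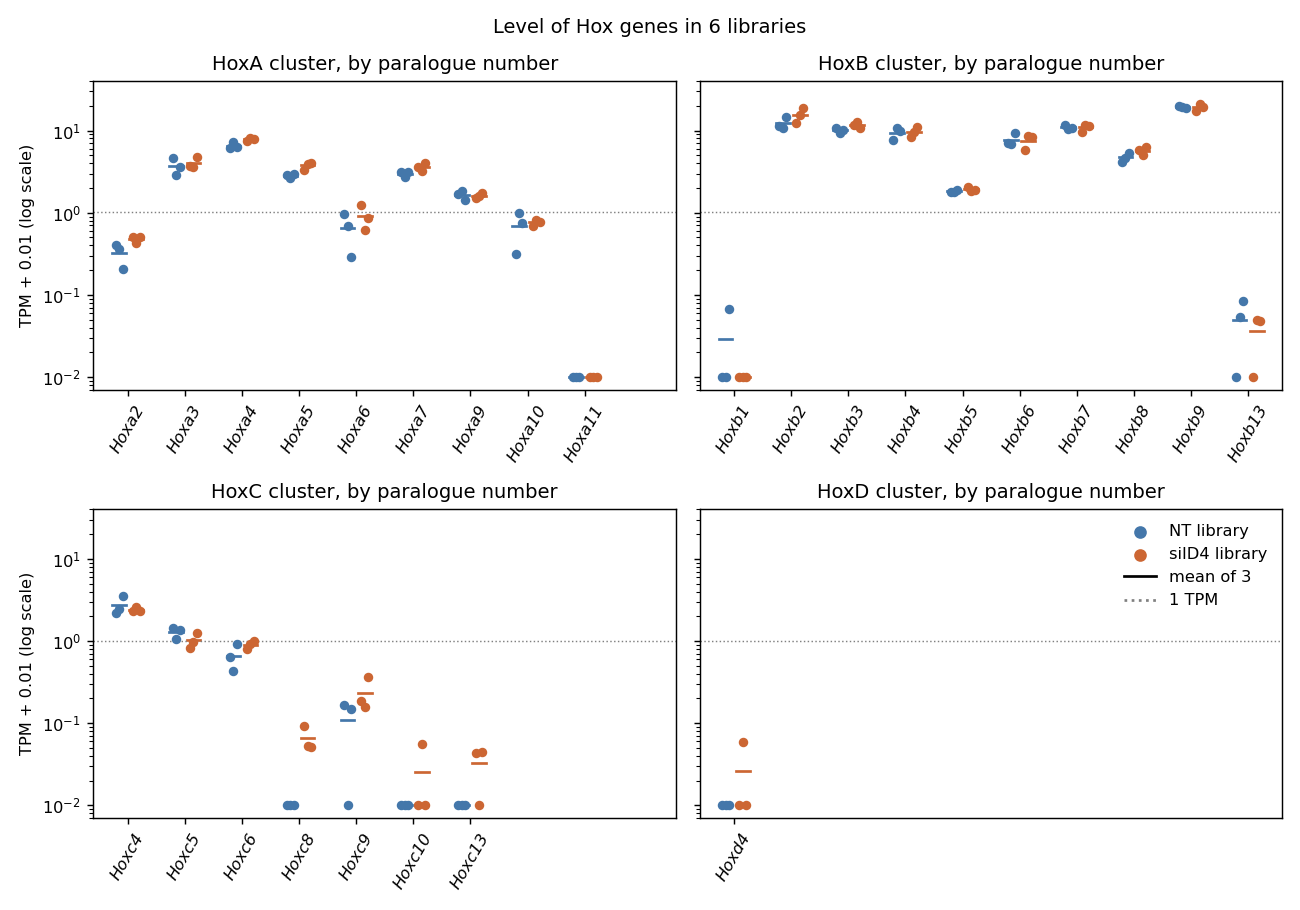
Level of Hox genes in TPM plus 0.01 on a log axis, in 4 panels by cluster, ordered by paralogue number. Points are single libraries (blue NT, orange siID4), short bars are means of 3 and the dotted line is 1 TPM. Hoxb2 to Hoxb9 all lie above 1 TPM, while Hoxb1, Hoxb13 and Hoxd4 lie near the floor.

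By level, Hoxb9 came first with a mean of 19.3 ± 1.24 TPM (SD, n = 6 libraries), followed by Hoxb2 (13.9 ± 2.97 TPM), Hoxb7 (10.9 ± 0.798 TPM), Hoxb3 (10.9 ± 1.18 TPM) and Hoxb4 (9.55 ± 1.33 TPM). Hoxb6, Hoxa4 and Hoxb8 came lower, at 7.64, 7.19 and 5.18 TPM. Each gene overlapped its neighbour in this order over the 6 libraries, except that Hoxc4 (lowest library 2.16 TPM) stayed above Hoxb5 (highest library 2.06 TPM). These ranges set different libraries side by side, so their overlap does not settle the order of neighbours. Within each of the 6 libraries Hoxb9 was above Hoxb2. Hoxb2 was below Hoxb7 in NT replicate 1 (11.5 and 11.7 TPM) and above it in the others. The ends of the list are far apart. By paralogue number, number 9 held 19.7% of the NT Hox total and number 4 held 17.6%, from Hoxa4, Hoxb4 and Hoxc4 together. Numbers 2 to 9 each had at least 1 gene that could be tested, number 10 had Hoxa10 alone, and numbers 11 and 13 had none.

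The most abundant member, Hoxb9 (ENSMUSG00000020875, protein-coding, GRCm38 chromosome 11, plus strand, 96271457 to 96276595), was at 25.7, 24.7 and 24.5 CPM in NT and 22.0, 26.4 and 24.9 CPM in siID4. The siID4 libraries lay on both sides of the NT libraries. The change, as the log2 ratio of siID4 to NT, was −0.03 (SE 0.08, 95% interval −0.22 to 0.16, edgeR adjusted p = 0.859), the narrowest interval of the 18. Its paralogue Hoxa9, known for its part in leukaemia, was far lower at 1.20, 1.31 and 1.01 CPM in NT and 1.04, 1.09 and 1.23 CPM in siID4. In TPM, Hoxa9 averaged 1.62 ± 0.160 beside 19.3 for Hoxb9. Hoxd9, the other gene of the trio known from mammary growth, was not analysed here.

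At the anterior end of HoxB, Hoxb1, a gene of hindbrain patterning, had 1 count in all. Its neighbour Hoxb2, also a gene of hindbrain patterning, was at 11.2, 10.5 and 14.4 CPM in NT and 11.4, 14.3 and 17.8 CPM in siID4. Replicate 3 was the highest library of each arm, the arms overlapped, and siID4 was above NT in each of the 3 same-numbered pairs. The log2 ratio was 0.27 (SE 0.18, 95% interval −0.13 to 0.66, adjusted p = 0.392). It was 0.093 without siID4 replicate 3, 0.18 without NT replicate 2, 0.42 without NT replicate 3 and 0.41 without siID4 replicate 1. With the replicate number as a block, which compares same-numbered libraries, Hoxb2 passed over all 6 libraries at the same size (0.27, SE 0.08, adjusted p = 0.0112). It was the only Hox gene to do so in that fit, 1 of 18, where 36.1% of all genes were called.

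Hoxb3 was at 15.8, 13.8 and 14.8 CPM in NT and 16.7, 17.9 and 15.5 CPM in siID4, with a log2 ratio of 0.18 (SE 0.09, adjusted p = 0.269, and 0.0673 with the block). Exons of both Hoxb2 and Hoxb3 overlap the antisense gene Hoxb3os, and the strand setting of the counting is not given in the sources used here, so their reads may not be fully separated. Hoxb3os itself was at 3.06 ± 0.558 CPM in NT and 3.03 ± 0.242 CPM in siID4. Hoxb4, known for the expansion of blood stem cells, was at 10.5, 14.7 and 13.6 CPM in NT and 11.1, 12.6 and 14.8 CPM in siID4, with a log2 ratio of −0.01.

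In the middle of HoxB, Hoxb5, Hoxb6 and Hoxb7 spread more widely within the arms than between them. Hoxb5 was at 2.16, 2.14 and 2.29 CPM in NT and 2.37, 2.08 and 2.19 CPM in siID4. Hoxb6 was at 7.08, 6.89 and 9.55 CPM in NT and 5.57, 8.20 and 8.24 CPM in siID4. Hoxb7, often raised in breast cancers, was at 7.88, 7.05 and 7.17 CPM in NT and 6.26, 7.43 and 7.54 CPM in siID4. In all 3 genes the ranges of the arms overlapped. Hoxb8, a regulator of myeloid progenitors, was at 5.22, 5.90 and 6.86 CPM in NT and 7.12, 6.07 and 7.80 CPM in siID4 (a log2 ratio of 0.22, SE 0.15, adjusted p = 0.390). Its arms overlapped, and siID4 was above NT in all 3 same-numbered pairs. Hoxb13, a gene of prostate and tail, had 5 counts over the 6 libraries.

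None of the 7 HoxA genes tested was called. Hoxa5 (chromosome 6 from 52201754 to 52204587 on the minus strand), needed for development of the airways, was at 2.91, 2.61 and 2.95 CPM in NT and 3.19, 3.80 and 3.99 CPM in siID4. The arms did not overlap. The log2 ratio was 0.37 (SE 0.16, 95% interval 0.02 to 0.73), with an unadjusted p of 0.0411 and an adjusted p of 0.174 (0.0587 with the block). Hoxa4 was at 5.22, 6.11 and 5.32 CPM in NT and 6.17, 6.66 and 6.62 CPM in siID4, again without overlap, with a log2 ratio of 0.23 (SE 0.12, adjusted p = 0.278).

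Hoxa3, needed for the thymus and parathyroid, was at 4.87, 3.03 and 3.87 CPM in NT and 3.80, 3.67 and 4.87 CPM in siID4. Hoxa7 was at 2.51, 2.19 and 2.51 CPM in NT and 2.81, 2.45 and 3.16 CPM in siID4. Their log2 ratios were 0.07 and 0.22, and in both genes the arms overlapped. Exons of Hoxa3, Hoxa4 and Hoxa7 overlap antisense genes.

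The rest of HoxA was at the edge of detection. Hoxa10, a gene of uterine development, had 4 to 12 counts per library and the widest interval of all, from −0.81 to 1.02 in log2 ratio. Hoxa2 (45 counts in all) and Hoxa6 (46 counts in all) fell below the filter. Hoxa11, which patterns the limb and uterus, was the only member at 0 in all 6 libraries, and 0 counts allow up to 3 counts per library, or 0.130 to 0.157 CPM, for counting error only.

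**Figure D2:**
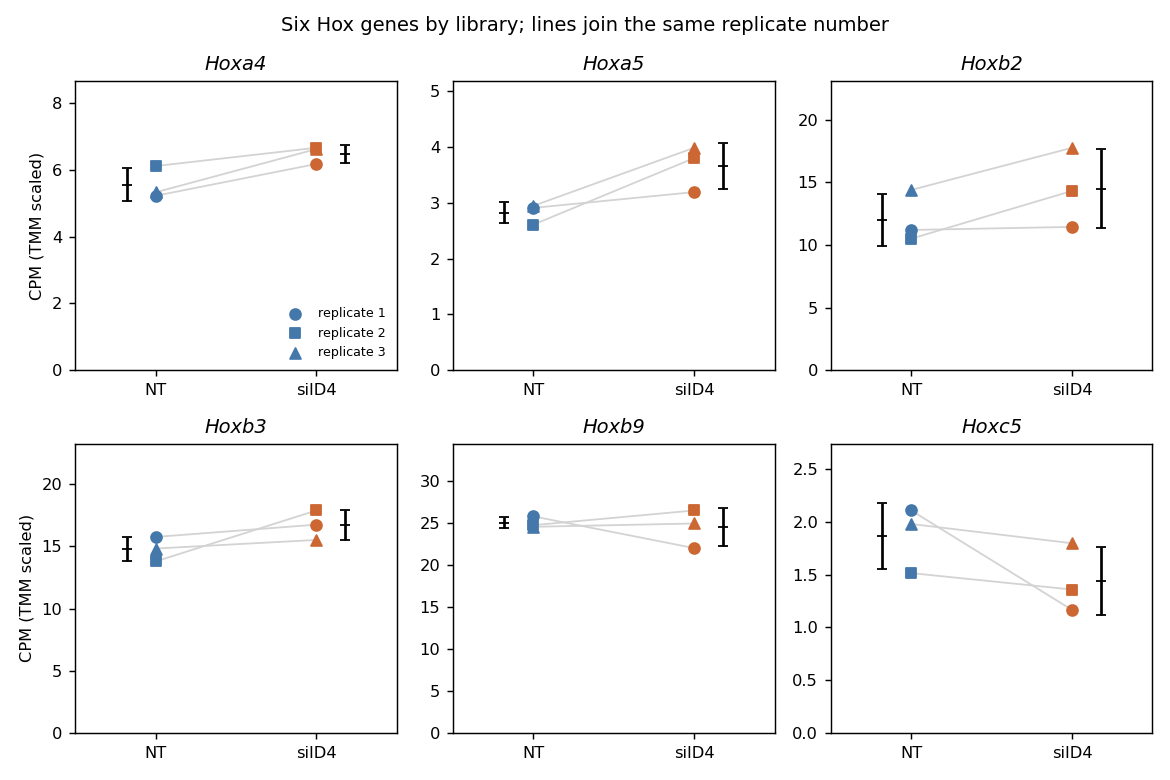
CPM of 6 Hox genes by library, with the vertical axis from 0, NT in blue and siID4 in orange, marker shape and grey lines giving the replicate number, and black bars the mean ± SD of 3 libraries. The arms are separate for Hoxa4 and Hoxa5 and overlap for Hoxb2, Hoxb3, Hoxb9 and Hoxc5, while all 3 lines rise for Hoxb2 and all 3 fall for Hoxc5.

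HoxC was low, and its members did not move one way. Hoxc4 was at 2.31, 2.56 and 3.78 CPM in NT and 2.37, 2.63 and 2.41 CPM in siID4, with 1 high library, NT replicate 3. Its log2 ratio was −0.23 (SE 0.21, adjusted p = 0.546). Hoxc5 was at 2.11, 1.51 and 1.98 CPM in NT and 1.17, 1.36 and 1.80 CPM in siID4 (a log2 ratio of −0.38, SE 0.23, 95% interval −0.91 to 0.15, adjusted p = 0.359). Of its exonic bases 5.4% are shared with Hoxc10 on the same strand. Its estimate was the lowest of the 18 and the only one below NT in all 3 same-numbered pairs. Hoxc6 had 8, 5 and 13 counts in NT and 11, 12 and 14 in siID4. Its log2 ratio was 0.37 with an interval from −0.44 to 1.18. It passed the low-count filter mainly through siID4, so its direction is not support apart from that filter.

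The HoxC genes from Hoxc8 onward had few reads. Hoxc9, a gene of thoracic identity, had 0 to 10 counts per library and 27 in all. Hoxc8, the gene of mammary bud placement, had 4 counts, with 2, 1 and 1 in siID4 and 0 in each NT library. Hoxc13, a gene of hair and nail, had 2 counts and Hoxc10 had 1. Hoxd4 also had 1 count, and 52.3% of its annotated exonic bases are shared with genes on the same strand, Hoxd3 among them, so even that read is not certain to be its own. Values this low do not show a difference between the arms in either direction.

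None of the 18 Hox genes tested was called at an adjusted p under 0.05, where 9.55% of all genes were called by edgeR. The median level of the 18 was 5.02 CPM, beside 27.0 CPM over all genes tested, and low counts make a change harder to call. The part of level in the shares of this paragraph was not tested. The limma-voom fit (9.55% of all genes) also called 0 of the 18. DESeq2 (10.7% of all genes) called 0 as well, but gave no adjusted p for Hoxa10 and Hoxc6. At an unadjusted p under 0.05 edgeR had 1 Hox gene, Hoxa5, or 1 of 18 beside 25.6% of all genes. The arms did not overlap for 2 of 18 (Hoxa4 and Hoxa5), and for 30.9% of all genes. All 3 same-numbered pairs went in 1 direction for 9 of 18, and for 59.5% of all genes. All 3 pairs were higher in siID4 for 8 of 18, and for 29.9% of all genes. Among the 8 were Hoxa5, Hoxb2, Hoxb3 and Hoxc6, the last with the filter limit given above.

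The estimates were small as well as not called, but not smaller than those of genes in general. The median size of the log2 ratio, without its sign, was 0.14 for the Hox genes and 0.12 over all genes tested. The 18 log2 ratios ran from −0.38 to 0.37 with a median of 0.09, beside a median of 0.00 over all genes tested. The median was 0.11 for the 7 HoxA genes, 0.00 for the 8 HoxB genes and −0.23 for the 3 HoxC genes. For 11 of the 18 the 95% interval lay within a 1.5-fold change in either direction, and for 16 within a 2-fold change. Only Hoxa10 and Hoxc6 had intervals that reached past 2-fold. The missed threshold does not show that a gene stayed the same, and these intervals give the changes the data still allow.

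**Figure D3:**
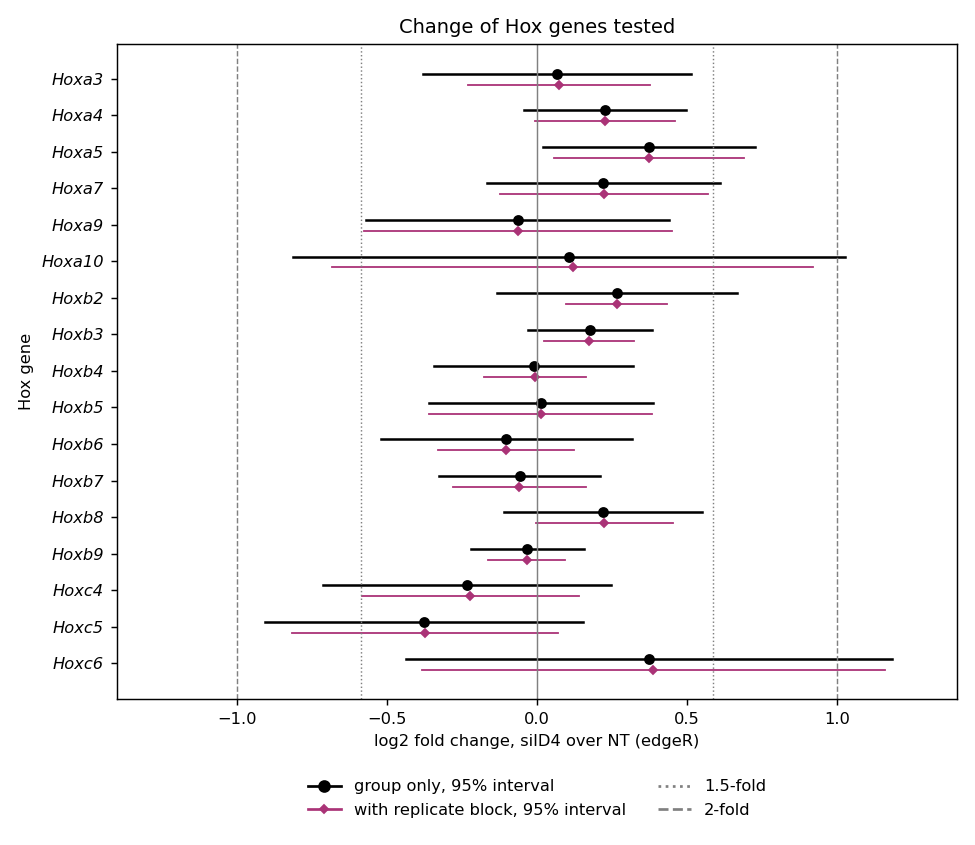
Log2 ratio of Hox genes tested, siID4 over NT, with 95% intervals from edgeR without a block (black) and with the replicate number as a block (purple); dotted lines mark 1.5-fold and dashed lines 2-fold. The black intervals shown all cross 0 except that of Hoxa5, and with the block those of Hoxb2 and Hoxb3 also lie clear of 0, of which Hoxb2 alone has an adjusted p under 0.05.

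Noncoding genes within the clusters were followed by a list. Of its 20 names, 9 were in the table and 3 could be tested. Of these 3, 0 were called, where 9.55% of all genes were called. Hotairm1, in the HoxA cluster, was at 1.25 ± 0.589 CPM in NT and 1.75 ± 0.464 CPM in siID4 (a log2 ratio of 0.46, SE 0.36, adjusted p = 0.467). Hoxaas2, by Hoxa3, had 91 counts in all and a log2 ratio of 0.47 (SE 0.45). NT replicate 1 held 3 of these counts, and without it the log2 ratio was 0.035. Hoxb3os, given above, had one of −0.02. Hoxaas3 had 35 counts, Hoxb5os 4, Hoxa11os 2, Hottip 1, Hoxd3os1 1 and Gm28308 0.

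HOX proteins bind DNA together with PBX, MEIS and PKNOX proteins, and mRNA of several of these was read. Of 9 cofactor genes, 7 could be tested and 0 were called, where 9.55% of all genes were called. Pbx3, Pbx2, Pknox1, Meis1 and Meis2 had NT means of 24.5, 23.9, 24.7, 18.8 and 11.6 CPM. Pbx2 had a log2 ratio of 0.15 (SE 0.07, adjusted p = 0.203) and passed with the block (adjusted p = 0.0408). It was 1 of 7 to do so, where 36.1% of all genes were called in that fit. Pbx4 was at 0.497 ± 0.134 CPM in NT and 0.764 ± 0.0925 CPM in siID4 (adjusted p = 0.255), and Meis3 and Pknox2 fell below the filter.

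Polycomb and trithorax proteins keep Hox genes off or on. All 29 genes listed could be tested, and 1 was called, where 9.55% of all genes were called. Jarid2, which helps bring Polycomb complexes to DNA, rose from 21.1 ± 1.17 to 30.5 ± 0.386 CPM (log2 ratio 0.53, SE 0.07, adjusted p = 0.00305), and it passed in every setting run. The catalytic gene Ezh2 had a log2 ratio of −0.07 (adjusted p = 0.401). With the block, 6 of these 29 genes rose and 6 fell, where 36.1% of all genes were called in that fit. Those that rose were Jarid2 (0.53), the demethylase gene Kdm6b (0.26), Pcgf2 (0.18), Ezh1 (0.18), Men1 (0.11) and Kmt2a (0.07). Those that fell were Cbx6 (−0.25), Phf19 (−0.23), Suz12 (−0.12), Wdr5 (−0.12), Bmi1 (−0.11) and Phc2 (−0.07). The median of the list was 0.03.

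Protein-coding genes flanking the clusters, whose nearest Hox gene was 28.9 to 565 kb away, did not move one way. Of 15 tested, 1 rose and 2 fell, where 9.55% of all genes were called. They were Calcoco1, 199 kb from Hoxc13 (log2 ratio 0.60, SE 0.15, adjusted p = 0.0416), Lnp, 88.9 kb from Hoxd13 (−0.31, SE 0.06, adjusted p = 0.0184) and Hnrnpa1, 204 kb from Hoxc4 (−0.18, SE 0.05, adjusted p = 0.0456). All 3 also passed with the block, with DESeq2 (adjusted p from 4.46e-04 to 0.0186) and with limma-voom (0.0193 to 0.0429). The calls were less steady when 1 library was left out, although each direction held. Lnp passed in 3 of the 6 fits that leave out 1 library, losing its call without NT replicate 2 (adjusted p = 0.0706), siID4 replicate 2 (0.0907) or siID4 replicate 3 (0.0558). Hnrnpa1 passed in none of these fits (adjusted p from 0.0592 to 0.196) and not with library totals in place of TMM (0.0596). Calcoco1 lost its call without NT replicate 2 (0.105), NT replicate 3 (0.0920), siID4 replicate 1 (0.107) or siID4 replicate 2 (0.143), and with no filter on low counts (0.143). With the block 4 of the 15 rose and 3 fell, beside 36.1% of all genes called.

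**Figure D4:**
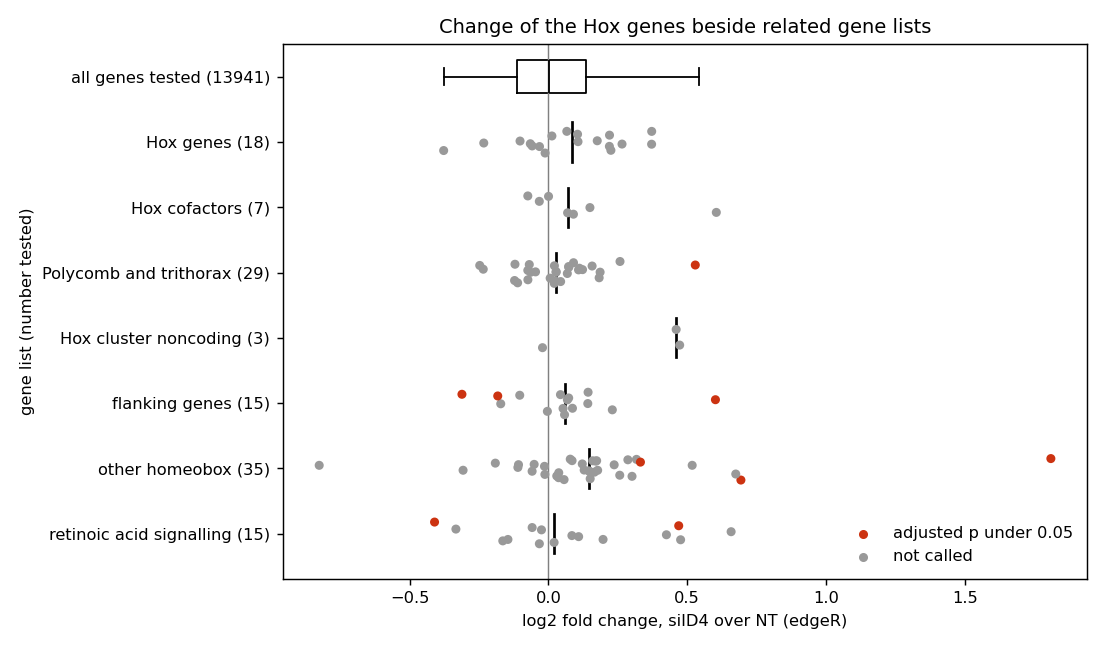
Log2 ratio, siID4 over NT, of the Hox genes and of 6 related lists, 1 point per gene (red where the edgeR adjusted p is under 0.05, grey otherwise) with a black bar at the median. The top box gives all 13941 genes tested (box from the 25th to the 75th percentile, whiskers from the 5th to the 95th). The 18 Hox points are all grey and lie between −0.38 and 0.37.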

How the data were processed

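The authors deposited 1 table of RSEM expected counts per gene, with a gene length and 6 library columns. Per the submitters' processing notes, cutadapt, STAR and RSEM were used on mm10. The sources used here do not state versions, annotation, strand setting or the filtering rule. Expected counts split ambiguous reads by estimate. They were rounded to whole numbers before testing (10.0% to 10.6% of values per library were not whole).

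The members, lists and tests were chosen with earlier results of these data known. Genes passing filterByExpr (13941 of 25655) were fitted together with edgeR 4.0.16 (R 4.3.3), TMM scaling, robust quasi-likelihood and group as the only term, with Benjamini-Hochberg adjustment over all genes tested. Adjusted p-values are from this test unless another is named. Standard errors and 95% intervals came from the F statistic. An exact permutation test of 3 against 3 libraries cannot go below p = 0.1. TPM was computed from rounded counts and the deposited length, which is in bases, over all genes of the table. Coordinates and exon overlaps are from GENCODE M21 (GRCm38, the build also called mm10), matched by gene identifier, which found all 28 members. In the gene lists, symbols were matched exactly.

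All 28 Hox genes enter the counts and sums. Results of 2 single genes are not reported here. Values per library are otherwise given for called Hox genes, those averaging 1 CPM or more and the most abundant of each cluster. From each list the called members are named, up to 6 by smallest adjusted p, with all Hox noncoding genes that had counts. Ezh2, the Polycomb and trithorax genes named from the block fit, the uncalled cofactors and the 3 promoters were chosen after their values were seen.

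Same-numbered libraries of the arms moved together around the means of their arms (3 correlations across 13941 genes, which are not independent, of 0.56, 0.18 and 0.50), so a block on the replicate number was fitted as an alternative. What same-numbered libraries share is not in the labels. P-values measure the spread between these cultures. Other alternatives were DESeq2 1.42.0, limma-voom (limma 3.58.1), 3 other scalings, 2 other filters and leaving out each library. Libraries of 1 arm differed by more than counting noise (chi-square of 5.09 to 13.6 for each gene on average).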

Additional observations from a re-analysis of the deposited data

How the results depend on the processing

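The count of Hox genes called was 0 under every scaling, filter, tool and left-out library tried, and 1 with the replicate block. The number of Hox genes passing the filter was 7 or 8 for HoxA without 1 library and did not move for the other clusters. Counting a gene as expressed at a mean of at least 1 CPM or 1 TPM, or at 10 counts in every library, moved HoxA from 7 to 6 and HoxC from 3 to 2.

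With the replicate block, 2493 genes rose and 2545 fell among all genes, or 36.1% of those tested. Of 18 Hox genes 1 rose, and of 7 cofactor genes 1 rose. Of 29 Polycomb and trithorax genes 6 rose and 6 fell, and of 15 flanking genes 4 rose and 3 fell. Of 35 other homeobox genes 12 rose and 2 fell, and of 15 retinoic acid genes 5 rose and 3 fell. The block changed the call of no other Hox gene than Hoxb2. With no filter on low counts, 2 Polycomb and trithorax genes and 0 flanking genes rose. With library totals, 2 flanking genes rose and 1 fell. With DESeq2, 2 retinoic acid genes rose.

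Without 1 library, the genes that rose were 221 to 686 and those that fell 224 to 665, with the lowest counts without siID4 replicate 2 (221 and 224) and NT replicate 2 (291 and 340), while 423 rose without NT replicate 3 and 404 without siID4 replicate 1. In the same fits 1 to 2 Polycomb and trithorax genes rose and 0 to 1 fell, 0 to 1 flanking genes rose and 0 to 2 fell, 1 to 3 other homeobox genes rose, and 0 to 2 retinoic acid genes rose and 0 to 2 fell. The cause was not tested.

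Estimates close to 0 changed sign without being called. Without 1 library, the log2 ratio ran from −0.0845 to 0.245 for Hoxa3, −0.167 to 0.0150 for Hoxa9, −0.226 to 0.420 for Hoxa10, −0.142 to 0.0877 for Hoxb4, −0.0397 to 0.0557 for Hoxb5, −0.195 to 0.0686 for Hoxb6, −0.107 to 0.0233 for Hoxb7, −0.0914 to 0.0396 for Hoxb9, −0.372 to 0.0212 for Hoxc4, −0.0927 to 0.0227 for Meis2 and −0.110 to 0.144 for Hoxb3os. With library totals Hoxb4 was at 0.0169 and Hoxb3os at 0.00856. The ratios of the summed cluster levels moved by less than the spread between replicates in every setting.

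Depth limits the low members. The 10 Hox genes below the filter had at most 46 counts over all 6 libraries.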

Other observations

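Homeobox genes outside the Hox clusters were followed by a list of their own. Of 35 tested of 56 listed, 3 rose and 0 fell, where 9.55% of all genes were called, with a median log2 ratio of 0.15. Dlx2, a gene of the distal-less family known from forebrain and branchial arches, rose from 0.245 ± 0.0602 to 0.866 ± 0.0973 CPM (SD, n = 3 per arm, log2 ratio 1.81, SE 0.33, adjusted p = 0.010), on 74 counts in all. Zeb2, a repressor of epithelial genes, rose from 46.7 ± 2.70 to 58.7 ± 4.66 CPM (0.33, SE 0.07, adjusted p = 0.0263). Prrx2, a homeobox gene of mesenchyme, rose from 22.1 ± 4.41 to 35.6 ± 6.16 CPM (0.69, SE 0.17, adjusted p = 0.0406). Dlx2 held 4, 6 and 5 counts in NT and 20, 17 and 22 in siID4, so it passed the low-count filter through siID4 alone. Its call is therefore not support apart from that filter. At a mean of 0.555 CPM it was left out of the fit that needs a mean of at least 1 CPM. It passed in all 6 fits that leave out 1 library, and DESeq2 gave it no adjusted p. Of these 6 fits Zeb2 and Prrx2 passed in 2 each. Zeb2 lost its call without NT replicate 2 (adjusted p = 0.0707), NT replicate 3 (0.0701), siID4 replicate 1 (0.0712) or siID4 replicate 2 (0.129), and Prrx2 without the same 4 libraries (adjusted p from 0.0762 to 0.147) and with no filter on low counts (0.102). Whether this list differs from the Hox genes was not tested.

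Retinoic acid, made and broken down in the cell, is a known inducer of Hox genes. Of 15 genes of its handling and signalling tested, 1 rose and 1 fell, beside the same 9.55% of all genes. Crabp2, which carries retinoic acid to its receptors, fell from 85.6 ± 5.60 to 64.4 ± 6.11 CPM (log2 ratio −0.41, SE 0.08, adjusted p = 0.0124). Dhrs3, a reductase of retinal, rose from 9.76 ± 0.602 to 13.5 ± 1.76 CPM (0.47, SE 0.12, adjusted p = 0.0368). Crabp2 lost its call without NT replicate 2 (0.0658) or siID4 replicate 2 (0.0698), and Dhrs3 without NT replicate 2 (0.134), NT replicate 3 (0.0808), siID4 replicate 1 (0.101) or siID4 replicate 3 (0.0835). By DESeq2 the adjusted p was 1.63e-04 for Crabp2 and 0.0210 for Dhrs3.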
